A study of Mus musculus with 22 samples.

Results

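Calcium-binding and calcium-sensor genes were described across 6 mouse nervous system cell types. The 9 genes, Calb1, Calb2, Pvalb, S100b, S100a1, Hpca, Ncald, Calm2 and Calm3, were picked by symbol. No measured value entered the rule, but the genes were chosen with earlier results of these data known. They were 9 of the 55385 genes in the transcript index, and 9 of the 20524 genes that passed the filter on low counts. The measurement was messenger RNA recovered with tagged ribosomes (RiboTag) and sequenced. Levels are given in TPM (transcript abundance scaled to a fixed library total), which are corrected for transcript length and so can be compared between genes.

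Most proteins of this group bind calcium through the EF-hand, a helix-loop-helix motif that occurs in pairs. Some act mainly as buffers, which shape how far and how long a calcium signal spreads: calbindin (Calb1), calretinin (Calb2) and parvalbumin (Pvalb). Others act mainly as sensors, which change shape on binding calcium and then bind partner proteins: calmodulin (Calm2 and Calm3), the S100 proteins, and hippocalcin (Hpca) and neurocalcin delta (Ncald) of the neuronal calcium sensor family, whose lipid tail is exposed on calcium binding. In brain tissue, the 3 buffers are classical markers of subsets of neurons, and S100b is a classical marker of astrocytes.

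All mice were 6 weeks old and heterozygous for the RiboTag allele (Rpl22 Fl/+), which yields an HA-tagged ribosomal protein after Cre recombination. What differed was the Cre driver, the tissue dissected and, with inducible drivers, tamoxifen. Rbp4-Cre was combined with hippocampus for dentate gyrus granule cells and with cortex for layer V cortical neurons, Gabra6-Cre with cerebellum for cerebellar granule cells, and Dlx6a-Cre with hippocampus for inhibitory interneurons. The label Aldh1-cre stands for a tamoxifen-inducible Aldh1l1-cre/ERT2 transgene in the study's methods and was used with cortex for astrocytes. Tmem119-cre, an inducible knock-in, was used with cortex for microglia. Per the methods, mice of inducible lines received tamoxifen by gavage from 3 weeks of age. Glia thus differed from neurons in this treatment as well, and the effects of treatment and cell class cannot be told apart. Each cell type had 3 replicates of either sex, and each interneuron library pooled the hippocampi of 2 mice. In such libraries, fewer cells of a type and less RNA per cell cannot be told apart. Layer V neurons, astrocytes and microglia shared the cortex, and dentate gyrus granule cells and interneurons shared the hippocampus. Between types from different regions, the effects of region and cell type cannot be told apart.

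Of 22 libraries, 18 were used, because 4 replicates had been sequenced in both of 2 batches and only their batch 1 library entered. Interneurons and microglia were sequenced in batch 2 only. Libraries held 38270477 to 97992957 estimated counts. In 1 library outside these 18, the levels of sex-linked genes went against the sex on its label (layer V replicate 1, batch 2). For the 4 replicates sequenced in both batches, the ratio of batch 2 to batch 1 TPM had a median of 0.991 over the 9 genes, and 26 of the 28 values at 10 TPM or more lay within 10%. Among single markers, Tmem119 averaged 1130 TPM in microglia and at most 4.66 TPM in another type. Gabra6 averaged 3895 TPM in cerebellar granule cells and at most 0.188 TPM in another type. Whole lists were less clean. The 5 microglia markers summed to 15640 TPM in microglia and 48.0 TPM in astrocytes. The 4 cerebellar granule cell markers summed to 5703 TPM in their type. They summed to 40.3 TPM in interneurons (4.05 to 65.5), 28.2 TPM in astrocytes and 20.6 TPM in microglia. The sum of the listed layer V markers did not single out their type. It was 241 to 257 TPM in layer V neurons and 244 to 276 TPM in dentate gyrus granule cells, where all 4 markers reached 10 TPM. In cerebellar granule cells it was 712 to 745 TPM, but there 1 of the 4 markers reached 10 TPM and 3 averaged under 1 TPM. Markers of other cell types were present as well. The 4 pan-neuronal markers summed to 867 TPM in astrocytes (748 to 986) and 367 TPM in microglia (351 to 392), against 3432 to 12710 in the neuronal types, and the 5 oligodendrocyte markers summed to 2704 TPM in interneurons (2642 to 2824), above the 120 to 1001 elsewhere. None of these markers was at 0 there.

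Calm2 and Calm3 call for their sequences, because they encode the same protein. Calm2 (chromosome 17 from 87433412 to 87446935, minus strand) and Calm3 (chromosome 7 from 16915379 to 16924114, minus strand; both GRCm38) each have a leading transcript of 6 exons with 450 coding bases, and the 149 encoded residues are identical. The coding bases are not, being 82.7% identical with 78 differences. The first 150 coding bases, counted from the A of the start codon and read from GENCODE transcripts of that build, are shown with capitals at the 23 positions at which the pair differs. Such differences help to assign sequencing reads to one gene or the other. The leading transcripts are 1205 (Calm2) and 2290 (Calm3) bases long, and their non-coding bases were not compared.
Calm2: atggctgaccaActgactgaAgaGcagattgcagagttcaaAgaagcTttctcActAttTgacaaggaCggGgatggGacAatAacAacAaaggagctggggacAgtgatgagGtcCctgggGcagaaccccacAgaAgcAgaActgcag
Calm3: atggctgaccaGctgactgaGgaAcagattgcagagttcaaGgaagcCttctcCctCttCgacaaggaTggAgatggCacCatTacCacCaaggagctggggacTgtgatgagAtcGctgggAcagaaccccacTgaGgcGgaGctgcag

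Hippocalcin and neurocalcin delta are the closest relatives among the other genes. Hpca (chromosome 4 from 129111570 to 129122036, minus strand) and Ncald (chromosome 15 from 37366175 to 37792570, minus strand) both encode 193 residues, of which 170 (88.1%) are identical, and their 582 coding bases are 78.7% identical. They are shown for the same stretch, with capitals at the 41 positions at which the pair differs. In cerebellar granule cells their levels were far apart, averaging 8.42 TPM for Hpca and 434 TPM for Ncald.
Hpca: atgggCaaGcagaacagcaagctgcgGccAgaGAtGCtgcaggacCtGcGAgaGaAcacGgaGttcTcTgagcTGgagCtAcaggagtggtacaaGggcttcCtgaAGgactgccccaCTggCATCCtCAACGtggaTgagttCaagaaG
Ncald: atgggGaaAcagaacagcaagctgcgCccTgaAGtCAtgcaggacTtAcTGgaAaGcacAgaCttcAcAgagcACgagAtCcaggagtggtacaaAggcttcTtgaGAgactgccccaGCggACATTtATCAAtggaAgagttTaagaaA
For comparison, the aligned residues of Calb1 and Calb2 were 60.8% identical and those of S100b and S100a1 58.7%.

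All 9 genes differed among the 6 cell types (edgeR, adjusted p at most 0.05), but so did 97.3% of all genes tested, so that this count says little about them. The size of the spread is described next. Because the genes were chosen with earlier results of these data known, and several are classical cell type markers, a wide range is partly set by the choice. From the cell type with the lowest to that with the highest mean TPM, the level rose 719-fold for S100a1, 606-fold for Calb2, 254-fold for Pvalb, 184-fold for S100b and 183-fold for Hpca. It rose 37.5-fold for Calb1, 32.4-fold for Ncald, 8.04-fold for Calm2 and 7.75-fold for Calm3. On the log2(TPM + 1) scale, the median range over the 9 genes was 7.26, against 1.62 over all genes tested and 2.14 over the 12346 of them with at least 10 TPM in a cell type. Calm2 and Calm3 had the narrowest ranges of the 9, and yet 78.3% and 77.5% of all genes tested had a narrower one. The highest mean was in dentate gyrus granule cells for Calb1, Hpca, Ncald and Calm3, in layer V neurons for Calm2, in cerebellar granule neurons for Calb2, in interneurons for Pvalb and in astrocytes for S100b and S100a1.

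**Figure D1:**
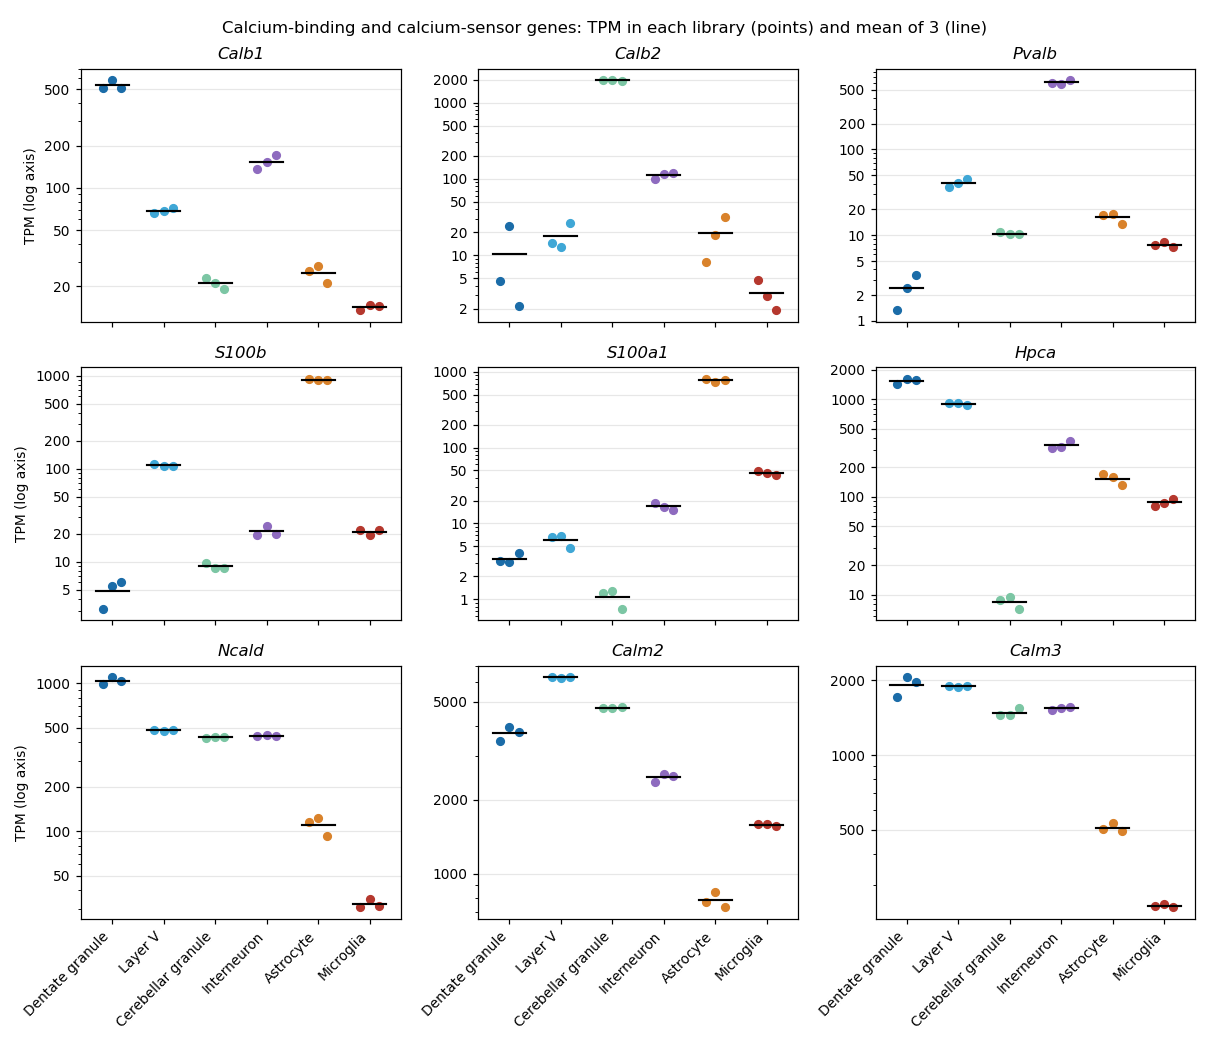
TPM on a log axis of the 9 genes in each of the 18 libraries (points, 3 per cell type) with the mean of each cell type (line). Calb2, Pvalb, S100b and S100a1 each stood far above all other types in a single one (means of 1946, 609.7, 902 and 781 TPM), whereas Calm2 and Calm3 were at 243 TPM or more in every library.

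Within a gene, cell types were put in order of mean TPM, and neighbours in that order were tested. Of 45 such neighbour comparisons, 39 passed the test. Among all genes tested, the share called between dentate gyrus granule cells and another type was 63.4% (layer V neurons), 63.9% (interneurons), 73.9% (cerebellar granule cells), 74.2% (astrocytes) and 79.8% (microglia). It was 60.7% between layer V neurons and interneurons, 76.1% between layer V and cerebellar granule neurons, and 77.2% and 83.2% between layer V neurons and astrocytes or microglia. Cerebellar granule cells differed from interneurons in 75.2%, from astrocytes in 82.7% and from microglia in 85.5% of genes, interneurons from astrocytes in 73.2% and from microglia in 80.8%, and astrocytes from microglia in 76.1%. The 6 that did not concerned Calb2 (3 comparisons), Pvalb, Ncald and Calm3. The test works on library-scaled counts, not on TPM, and the scales differ by cell type. The counts were scaled by TMM, which is built to even out typical differences between libraries. The median over 12346 genes of the log2 difference between layer V neurons and interneurons was -0.03 in these counts and -0.30 in TPM. Between dentate gyrus granule cells and layer V neurons it was 0.04 and 0.25. Small TPM differences between these types are therefore to be read against that shift, and log2 fold changes below are on the counts scale unless TPM is named.

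**Figure D2:**
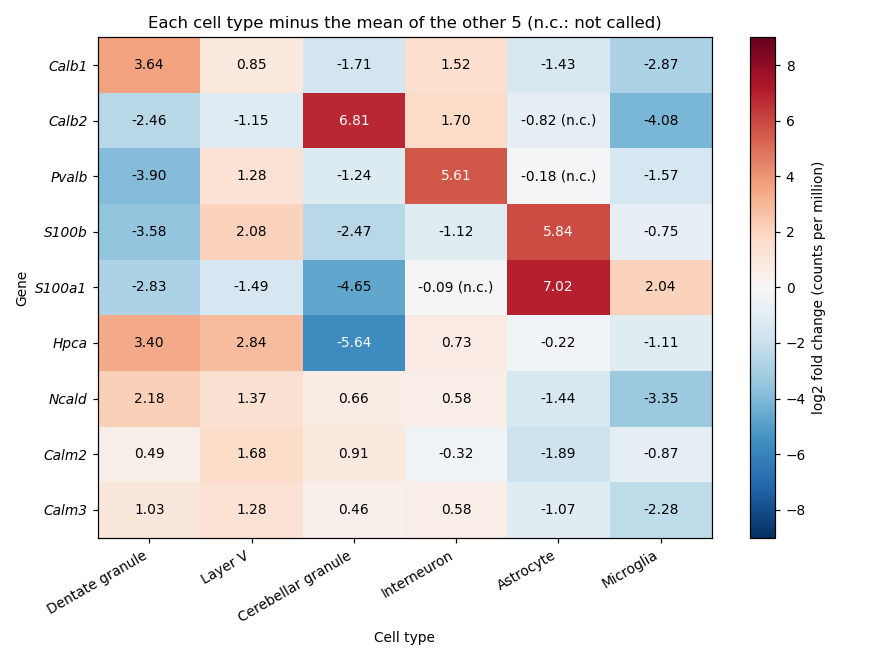
Log2 fold change of each gene (rows) between each cell type (columns) and the mean of the other 5, from edgeR on counts; n.c. marks the 3 of 54 values that did not pass the test. Red is higher and blue lower; the extremes are S100a1 in astrocytes (7.02) and Hpca in cerebellar granule cells (-5.64).

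Each cell type was also set against the mean of the other 5. In dentate gyrus granule cells 5 of the 9 genes were higher and 4 lower, where 35.3% and 31.4% of all genes tested were. In layer V neurons 7 were higher and 2 lower (37.8% and 35.4% of all genes), in cerebellar granule cells 4 and 5 (36% and 46.1%), and in interneurons 6 and 2 (35.1% and 32.2%). Astrocytes had 2 higher and 5 lower (40.2% and 33%), the 2 being S100b and S100a1, and microglia had 1 higher, S100a1, and 8 lower (43.4% and 37.6%). The 3 values that did not pass were those of Calb2 and Pvalb in astrocytes and of S100a1 in interneurons. Pvalb in astrocytes did pass as lower in 10 of 18 fits without 1 library and on the log2(TPM + 1) scale (limma, -0.50, adjusted p = 0.00201), and Calm2 in interneurons, called lower at -0.32, did not pass on that scale (-0.11, adjusted p = 0.0779). Batch 2 held 3 libraries each of interneurons and microglia but 1 library of each of the other 4 types, among them the layer V library that went against its sex label, so that values from batch 2 alone assume that these single libraries vary like the interneuron and microglia libraries. In that fit every call was the same but for Hpca in astrocytes (log2 fold change -0.18, adjusted p = 0.146, against -0.22 with all 18 libraries)

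Calb1, which encodes the buffer calbindin, was at 515, 583 and 511 TPM in the 3 dentate gyrus granule cell libraries. Interneurons followed at 137, 153 and 170 TPM, and layer V neurons at 66.1, 68.9 and 72.4 TPM. These 3 types did not overlap with each other or with the rest. The log2 fold change of dentate gyrus granule cells over interneurons was 1.77 (standard error 0.09, adjusted p = 1.73e-11), and that of interneurons over layer V neurons 0.56 (standard error 0.09, adjusted p = 4.70e-05). Astrocytes stood at 21.1 to 28.0 TPM, cerebellar granule cells at 19.1 to 22.9 and microglia at 13.5 to 14.7. The difference between astrocytes and cerebellar granule cells was small (log2 fold change 0.23, adjusted p = 0.0378), their TPM overlapped, and the call was lost in 15 of 18 fits without 1 library, with a value of 0.004 without astrocyte replicate 2. In the cerebellum calbindin is known from Purkinje cells, whose markers Pcp2 and Car8 were at 15.1 and 15.3 TPM in the cerebellar granule cell libraries. Pcp2 was at most 0.206 TPM in any library of another type, while the sum of all 5 listed Purkinje markers, some of which other neurons express, was 48.3 TPM there and 46.6 to 213 TPM elsewhere. The part of such RNA in the 21.1 TPM of Calb1 was not tested.

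Calb2, which encodes calretinin, was the most cell-type-bound of the buffers. In cerebellar granule cells it was at 1961, 1968 and 1908 TPM, which is 1946 ± 32.5 TPM (SD, n = 3). Interneurons came next at 99.3, 115.0 and 121 TPM, lower by a log2 fold change of 4.26 (standard error 0.57, adjusted p = 2.14e-06) on the counts scale. Below these types the order was unsettled. Layer V neurons were at 14.3, 12.9 and 26.6 TPM, astrocytes at 8.14, 18.7 and 31.5 TPM, dentate gyrus granule cells at 4.60, 24.5 and 2.18 TPM, and microglia at 4.76, 2.96 and 1.91 TPM. The SD over the 3 dentate gyrus granule cell libraries, 12.2 TPM, exceeded their mean of 10.4 TPM, and no neighbours among these 4 types passed the test (adjusted p = 0.657, 0.12 and 0.0824).

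Replicate 2 of the dentate gyrus granule cells decided several Calb2 values. Without it, layer V neurons were higher than dentate gyrus granule cells by a log2 fold change of 2.53 (adjusted p = 0.000668) rather than 1.1, and the value for dentate gyrus granule cells against the mean of the other 5 types moved from -2.46 to -3.91. In that replicate the 7 GABAergic markers summed to 172 TPM, close to the 155 and 159 TPM of the other two, Neurod6 was at 20.1 TPM (16.96 and 42.4 in the others) and Reln at 6.78 TPM (4.84 and 5.26). In astrocytes the library with the highest Calb2, replicate 3, also had the highest summed GABAergic markers (147 TPM, against 93.8 and 118) and the highest Dlx1 (29.2 TPM, against 12.8 and 15.6), while its pan-neuronal sum was the lowest of the 3 (748 TPM). Their part in the Calb2 level was not tested.

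Pvalb, which encodes parvalbumin, the buffer known from fast-spiking interneurons, was at 602, 582 and 645 TPM in interneurons. Layer V neurons, in second place, were at 36.4, 40.2 and 44.9 TPM. The difference was a log2 fold change of 3.60 (standard error 0.13, adjusted p = 9.72e-14). Astrocytes were at 13.5 to 17.9 TPM, cerebellar granule cells at 10.3 to 10.8, microglia at 7.22 to 8.27 and dentate gyrus granule cells at 1.33 to 3.44 TPM. The difference between cerebellar granule cells and microglia did not pass the test (log2 fold change 0.27, standard error 0.14, adjusted p = 0.0855), although their TPM did not overlap, and the comparison passed in 12 of 18 fits without 1 library. In the layer V libraries, Pvalb stood at 6.64% of its interneuron level, while Gad1, the enzyme that makes GABA, stood at 0.733% and Slc32a1, the vesicular GABA transporter, at 1.104%. Sst, a marker of another interneuron subclass, stood at 4.82%. The 6 listed subclass markers summed to 3172 TPM in layer V neurons and 9059 TPM in interneurons. The interneuron libraries came from hippocampus and the layer V libraries from cortex. The part of interneuron RNA in the layer V level of Pvalb was not tested.

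The 3 buffers thus had their highest levels in 3 different neuronal types, with fold differences to the second type of 3.501 (Calb1), 17.4 (Calb2) and 15.1 (Pvalb) on the TPM scale. All of them were lower in glia than in neurons, that is, in the mean of astrocytes and microglia against the mean of the 4 neuronal types, by log2 fold changes of -2.69 for Calb1, -3.06 for Calb2 and -1.09 for Pvalb. In batch 2 alone, with 1 library for 4 of the 6 types, these values were -2.63, -2.49 and -1.17.

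The S100 genes ran the other way. S100b, which encodes a small calcium sensor that astrocytes also secrete, was at 930, 887 and 890 TPM in astrocytes, 902 ± 23.9 TPM (SD, n = 3). Layer V neurons were second, at 113, 107 and 107 TPM, and the log2 fold change between them was 3.13 (standard error 0.11, adjusted p = 2.32e-14). Interneurons (19.4 to 24.2 TPM) and microglia (19.5 to 22.1 TPM) overlapped on the TPM scale. Between these types the counts put microglia higher, by a log2 fold change of 0.30 (adjusted p = 0.0223), and the TPM did not (log2 fold change of interneurons over microglia 0.00094 by limma). The call was also lost on counts without the filter (adjusted p = 0.106), with the batch 2 libraries and a batch term (adjusted p = 0.089) and in 4 of 18 fits without 1 library. Cerebellar granule cells were at 8.54 to 9.65 TPM and dentate gyrus granule cells at 3.14 to 6.12 TPM.

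The S100b level of layer V neurons was 12.1% of that of astrocytes, and other astrocyte markers were set beside it. Aldh1l1 was at 27.6 TPM in layer V neurons, 7.92% of its astrocyte level. Aqp4 was at 1.32 TPM (0.317%), Slc1a3 at 6.11 TPM (0.291%) and Gja1 at 3.61 TPM (0.342%). Gfap was at 3.74 TPM, against 834 TPM in astrocytes, and Slc1a2 at 70.1 TPM, against 3299 TPM. All of these markers were detected in the layer V libraries, and their 6-gene sum was 112 to 113 TPM there, against 103 TPM in dentate gyrus granule cells, where S100b was at 4.91 TPM. The part of astrocyte RNA in the layer V level of S100b was not tested.

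S100a1, which encodes a related sensor known mainly from heart muscle, was at 815, 743 and 785 TPM in astrocytes. Microglia, in second place, were at 48.5, 46.3 and 44.0 TPM, which is 5.93% of the astrocyte mean. In the same microglia libraries Aqp4 stood at 1.58%, Gja1 at 2.08%, S100b at 2.34%, Aldh1l1 at 2.75% and Slc1a3 at 3.94% of their astrocyte levels. The part of astrocyte RNA in the microglial S100a1 was not tested. Among neurons, interneurons were highest at 15.2 to 18.8 TPM, followed by layer V neurons (4.76 to 6.87 TPM), dentate gyrus granule cells (3.11 to 4.03 TPM) and cerebellar granule cells (0.751 to 1.29 TPM). Every step in this order passed the test, the smallest with a log2 fold change of 1.12.

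Against neurons, glia were higher in S100a1 by a log2 fold change of 5.66 (standard error 0.07, adjusted p = 9.13e-21) and in S100b by 3.18 (standard error 0.07, adjusted p = 5.40e-18). In batch 2 alone the values were 5.43 and 3.08. For S100b, microglia lay below the mean of the other 5 types (log2 fold change -0.75, adjusted p = 5.98e-07), whereas for S100a1 they lay above it (2.04, adjusted p = 1.19e-13). Of all genes tested, 46.8% were higher in glia, 36.4% were lower, and 83.3% were called in either direction, so that the call itself sets none of the 9 genes apart.

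Hippocalcin and neurocalcin delta had the same first and second cell types but parted in the cerebellum. Hpca, known from hippocampal pyramidal cells, was at 1432, 1624 and 1572 TPM in dentate gyrus granule cells and at 908, 915 and 864 TPM in layer V neurons. In cerebellar granule cells it was at 8.77, 9.35 and 7.15 TPM, the lowest of all types and 0.546% of the dentate level. Both types are small excitatory neurons, and yet this gene divided them. Interneurons were at 318 to 370 TPM, astrocytes at 131 to 170 and microglia at 81.3 to 95.5 TPM. All neighbours in this order differed, with log2 fold changes from 0.46 between dentate gyrus granule cells and layer V neurons to 3.77 between microglia and cerebellar granule cells.

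Ncald showed no such gap. It was at 997, 1105 and 1033 TPM in dentate gyrus granule cells, 480 to 486 TPM in layer V neurons, 441 to 450 in interneurons and 428 to 437 in cerebellar granule cells. The means of the last 3 types, 482, 444 and 434 TPM, were close. By counts, layer V neurons were higher than interneurons (log2 fold change 0.66, standard error 0.06, adjusted p = 7.65e-08), but by TPM the difference was 0.12 (limma, adjusted p = 0.201). The difference between interneurons and cerebellar granule cells did not pass the test (log2 fold change -0.07, standard error 0.06, adjusted p = 0.323). Glia were lower, at 93.7 to 122 TPM in astrocytes and 30.7 to 34.9 TPM in microglia.

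The glial levels of both genes can be set beside markers of excitatory neurons in the same libraries. Astrocyte libraries held 17.2% of the layer V level of Hpca and 23.0% of that of Ncald, and 17.1% of that of Slc17a7, the vesicular glutamate transporter of cortical excitatory neurons. Microglia libraries held 9.80% of the layer V level of Hpca, 6.69% of that of Ncald and 9.04% of that of Slc17a7. Snap25, a synaptic protein gene of all neurons, was at 10.3% in astrocytes and 3.91% in microglia, and Neurod6 at 10.98% and 4.94%. How much of the glial Hpca and Ncald came from such RNA was not tested. Against neurons, glia were lower by log2 fold changes of -0.83 for Hpca (standard error 0.05, adjusted p = 1.78e-11) and -2.99 for Ncald (standard error 0.05, adjusted p = 6.63e-20), and by -0.82 and -3.01 in batch 2 alone. The smaller value for Hpca includes the low level of cerebellar granule cells among the neurons.

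Calm2 had the highest TPM of the 9 genes in every type but astrocytes, where S100b was higher. It was at 6296, 6251 and 6305 TPM in layer V neurons, 4721 to 4757 in granule cells of the cerebellum, 3466 to 3953 in those of the dentate gyrus and 2364 to 2556 in interneurons. Microglia (1564 to 1596 TPM) stood above astrocytes (732 to 844 TPM), and no cell types overlapped. All 5 neighbour comparisons passed, with log2 fold changes from 0.34 to 0.85. Calm3 was more even among neurons, at 1717 to 2062 TPM in dentate gyrus granule cells, 1883 to 1903 in layer V neurons, 1523 to 1557 in interneurons and 1445 to 1543 in cerebellar granule cells. Its glial order was the reverse of that of Calm2, with 495 to 533 TPM in astrocytes and 243 to 251 TPM in microglia. Dentate gyrus granule cells and layer V neurons overlapped in TPM for Calm3, and the counts put layer V neurons higher by a log2 fold change of 0.21 (adjusted p = 0.000965) where the TPM gave a difference of 0.01 in the other direction.

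Between astrocytes and microglia the 2 genes moved in opposite directions: Calm2 was higher in microglia by a log2 fold change of 0.85 (standard error 0.06, adjusted p = 1.29e-10) and Calm3 higher in astrocytes by 1.01 (standard error 0.05, adjusted p = 1.25e-12). In batch 2 alone the values were 0.74 and 1.00. As percent of the astrocyte level, microglia libraries held 48.5% for Calm3, 53.0% for Slc17a7, 44.9% for Neurod6 and 38.1% for Snap25. For Calm2 they held 202.7%. Of the layer V level, astrocyte libraries held 12.4% for Calm2 and 26.9% for Calm3. The part of neuronal RNA in the glial levels of both genes was not tested. Against neurons, glia were lower in both, by log2 fold changes of -1.72 for Calm2 (adjusted p = 4.51e-18) and -2.09 for Calm3 (adjusted p = 6.89e-20).

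The genes also differed in which of their transcripts carried the TPM, a measure that had no part in the rule that picked them. S100b has a single transcript in the index, and in Calb2, Pvalb and Calm2 only the leading transcript reached 10% of the gene's TPM in a cell type. In Ncald 5 of 12 transcripts did so. Ncald-203 led everywhere with 63.9% to 71.8%, but the remainder differed between types: Ncald-208 had 17.1% in cerebellar granule cells, 17.3% in interneurons and 17.4% in astrocytes, and was at 0 in all layer V libraries. Ncald-211 had 13.7% (13.2% to 14.3%) in layer V neurons and 2.7% or less in the other neuronal types. In microglia, where the gene was low, it had 10.5% (7.0% to 12.9%). Ncald-202 had 14.1% (13% to 14.8%) in dentate gyrus granule cells and at most 5.9% elsewhere. All are annotated as protein-coding. Ncald-202 and Ncald-208 are short (858 and 787 bases), so their shares of the reads were smaller than those of the TPM. Ncald-202 took 3.4% and Ncald-208 3.5% to 3.7% of the gene's estimated counts in the types named.

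In Calb1, the transcript Calb1-202, annotated with a retained intron and 701 bases long, carried 34.8% (33.4% to 35.7%) of the TPM in dentate gyrus granule cells but 7.2% of the estimated counts. It carried a similar share in astrocytes (34.5%) and microglia (33.8%), 23.8% in interneurons, 1.4% in layer V neurons and 0 in cerebellar granule cells. With protein-coding transcripts alone, the Calb1 level in dentate gyrus granule cells was 348 TPM in place of 537, still the highest of all types, and astrocytes (15.4 TPM) fell below cerebellar granule cells (16.5 TPM). In Hpca, Hpca-201 led with 60.2% to 86.2%. Hpca-205, 759 bases long, ranged from 5.7% in microglia to 20.7% in cerebellar granule cells. There the gene was low, and Hpca-205 averaged 25.4 estimated counts. In Calm3, the processed transcript Calm3-204, 482 bases long, reached 12.5% in astrocytes but took 1.5% of the gene's estimated counts there.

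**Figure D3:**
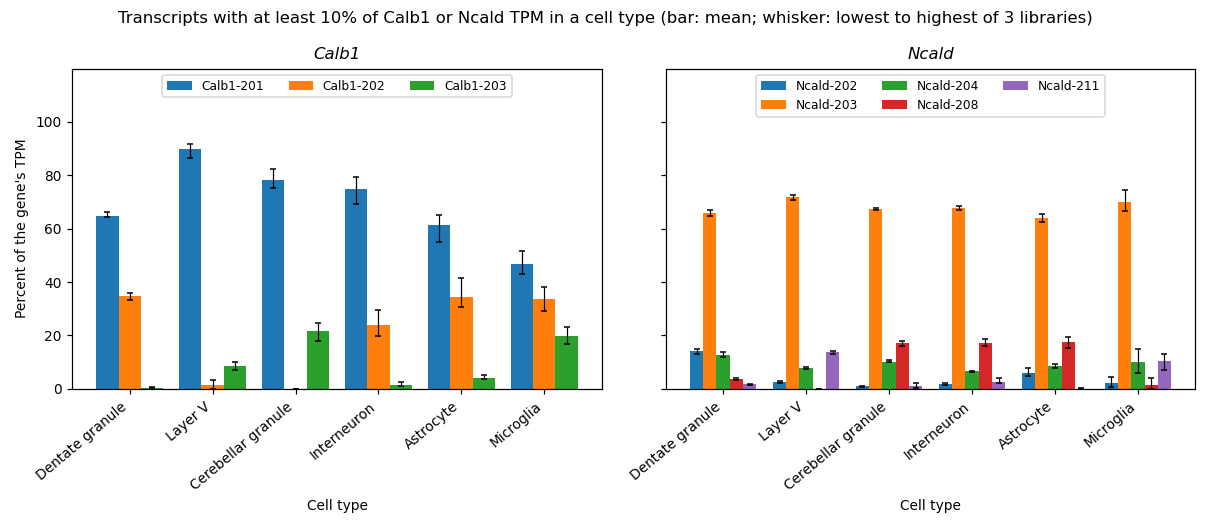
Mean percent of the TPM of Calb1 (left) and Ncald (right) carried by each transcript that reached 10% in a cell type; whiskers run from the lowest to the highest of 3 libraries. Calb1-202 carried 34.8% in dentate gyrus granule cells, 34.5% in astrocytes, 33.8% in microglia, 23.8% in interneurons and 1.4% in layer V neurons, and Ncald-208 carried 17.1% to 17.4% in 3 types and 0 in layer V neurons.

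Other genes of these families were taken from lists of family members and partners, written with earlier results of these data known. In the S100 family, 9 of 13 listed genes passed the count filter, which a gene can pass through a high level in a single type. All 9 were called higher in astrocytes than in the mean of the other types, but this count is partly set by the filter: S100a3, S100a8 and S100a9 averaged 1.42, 5.99 and 9.88 TPM in astrocytes and at most 0.489, 0.225 and 0.522 TPM in any other type. S100a16 was at 462 ± 5.35 TPM in astrocytes and at most 43.0 TPM in any library of another type (log2 fold change 5.67, adjusted p = 4.96e-22). S100a13 was at 199 ± 8.59 TPM against at most 53.6 (log2 fold change 5.93, adjusted p = 1.08e-19), and S100a4 at 48.1 ± 3.46 TPM against at most 6.403 (log2 fold change 6.00, adjusted p = 3.64e-15; SD, n = 3). Not every S100 gene was highest in astrocytes in TPM: S100a10, known as a partner of annexin A2, was at 188 TPM in layer V neurons and 86.5 TPM in astrocytes, and S100a11 at 51.3 TPM in microglia and 25.9 TPM in astrocytes, values looked up after the list was counted.

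In the neuronal calcium sensor family, apart from Hpca and Ncald, 11 of 11 listed genes passed the filter. In glia 6 were lower than in neurons, 2 were higher and 3 did not pass, where 36.4% of all genes tested were lower and 46.8% higher, and the median log2 fold change was -0.97 (0.18 over all genes). In layer V neurons 7 were higher, 1 was lower and 3 did not pass, where 37.8% of all genes were higher and 35.4% lower. Kcnip1, which encodes a subunit of A-type potassium channels, was at 137 ± 3.39 TPM (SD, n = 3) in interneurons and at most 8.39 TPM in any other library (log2 fold change 4.53, adjusted p = 2.63e-19). Its relative Kcnip2 was at 1.86 ± 0.218 TPM in cerebellar granule cells and between 22.6 and 212 TPM elsewhere (log2 fold change -5.58, adjusted p = 2.36e-19), a gap in the same cell type as that of Hpca. Guca1a, known from photoreceptors as an activator of guanylate cyclase, was at 9.94 to 11.9 TPM in microglia and at most 0.160 TPM in other types (adjusted p = 7.28e-14), several of which had 0 in a library, so that no fold is given.

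**Figure D4:**
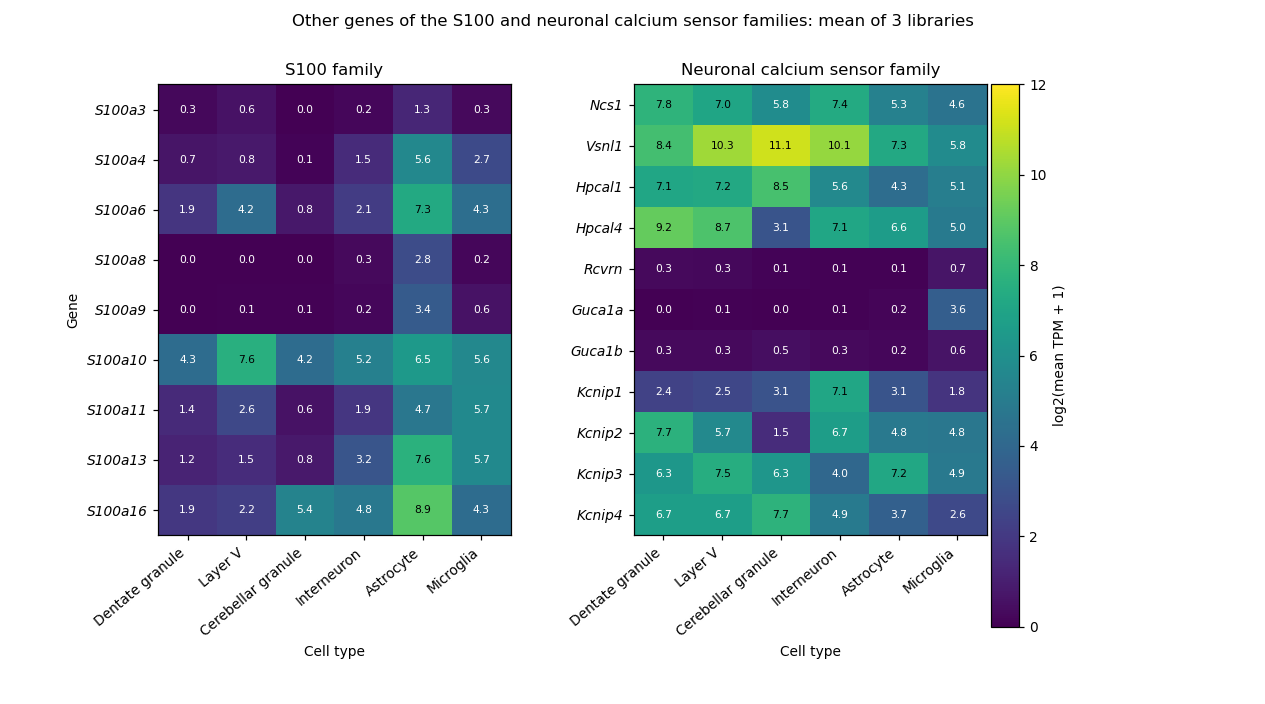
Mean level over 3 libraries, as log2(TPM + 1), of the other S100 genes (left) and other neuronal calcium sensor genes (right) that passed the count filter, by cell type. S100a16 averaged 462 TPM in astrocytes and at most 39.9 TPM in another type, and Kcnip2 and Hpcal4, the latter singled out after its values were seen, were at 1.86 and 7.55 TPM in cerebellar granule cells.

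Of the CaBP and calneuron family, which are calmodulin-like modulators of channels, 4 of 6 listed genes were tested. In glia 3 were lower than in neurons and 1 did not pass, beside the 36.4% of all genes that were lower. Each of those named was highest in a different neuronal type: Cabp7 at 151 ± 10.5 TPM in dentate gyrus granule cells (log2 fold change 4.44, adjusted p = 1.58e-18), Caln1 at 415 ± 11.3 TPM in cerebellar granule cells (3.10, adjusted p = 8.55e-21) and Cabp1 at 368 ± 5.67 TPM in layer V neurons (2.21, adjusted p = 3.96e-14; SD, n = 3). Of 15 other EF-hand buffers and sensors, 9 were higher in glia, 4 were lower and 2 did not pass, where 46.8% of all genes were higher and 36.4% lower, and the median log2 fold change was 0.94 (0.18 over all genes). Efhd1, a mitochondrial EF-hand protein gene, was at 89.9 ± 8.02 TPM in astrocytes and at most 13.9 TPM in any library of another type (log2 fold change 6.26, adjusted p = 8.41e-21). Rcn3, of the secretory pathway, was at 0.137 ± 0.0849 TPM in cerebellar granule cells (log2 fold change -5.02, adjusted p = 4.06e-09). It was low in the other neuronal types as well, averaging 0.495 to 1.62 TPM, against 15.8 TPM in astrocytes and 20.4 TPM in microglia. Scgn, which encodes secretagogin, a relative of calbindin and calretinin, was at 0 in the cerebellar granule cell libraries (adjusted p = 0.000844 against the mean of the others). It averaged 10.7 TPM in dentate gyrus granule cells and at most 1.72 TPM in any other type.

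Of 28 targets and regulators of calmodulin, 22 were lower in glia than in neurons, 5 were higher and 1 did not pass, with a median log2 fold change of -1.17, beside the 36.4% of all genes that were lower. In layer V neurons 24 of 28 were higher than in the mean of the other types and 1 was lower, where 37.8% and 35.4% of all genes were. In microglia 25 were lower and 3 higher, where 37.6% and 43.4% of all genes were. The largest changes were in cerebellar granule cells. Nrgn, which encodes neurogranin, a protein that binds calmodulin when calcium is low, was at 0.814 ± 0.245 TPM there and between 179 and 5181 TPM in all other libraries (log2 fold change -10.14, adjusted p = 2.57e-19). Camk2a, the alpha subunit of a calmodulin-dependent kinase, was at 0.940 ± 0.0821 TPM there and at 124 TPM or more elsewhere (log2 fold change -9.37, adjusted p = 8.58e-19), and Pde1a, a calmodulin-stimulated phosphodiesterase, at 0.124 ± 0.0253 TPM there and at 9.54 TPM or more elsewhere (log2 fold change -8.64, adjusted p = 2.77e-18; SD, n = 3).

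For each of the 9 genes, the 3 genes with the most similar pattern over the 18 libraries were found among the 12346 genes with at least 10 TPM in a cell type, by Pearson's r of log2(TPM + 1). The libraries share cell types, so that r mostly reflects 6 levels, and no p is given. The highest values were 0.998 for Hpca with Chrm1, an acetylcholine receptor gene at 187 TPM in dentate gyrus granule cells and 0.0396 TPM in cerebellar granule cells, and 0.998 for Calm3 with Atl1. Ncald was most like Ankrd46 (0.997), Calb1 most like Ppp4r4 (0.989), S100a1 most like Fmo1 (0.988), Calm2 most like Vps50 (0.977), S100b most like Slc20a1 (0.977), Pvalb most like Esrra (0.976) and Calb2 most like Ldoc1 (0.973). Aldh1l1, whose promoter drives the astrocyte Cre, was among the 3 for S100b (0.972). None of the 9 genes was among the 3 most similar to another.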

How the data were processed

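Messenger RNA bound to HA-tagged ribosomes was immunoprecipitated from dissected brain tissue and sequenced as stranded paired-end libraries. Per the methods, adapters were removed with cutadapt 3.5 and abundances estimated with kallisto 0.46.2 on an index of GENCODE M24 transcripts (GRCm38). The authors deposited estimated counts, and TPM computed from them and from transcript length, for each transcript in 22 libraries. Kallisto shares reads that fit several transcripts between them by likelihood, so transcripts or genes of similar sequence are estimates. Here both were summed over the transcripts of a gene. Estimated counts were rounded, filtered with filterByExpr, scaled by TMM and tested with edgeR 4.0.16 (quasi-likelihood test, R 4.3.3) over 18 libraries with cell type as the only term, and p-values were adjusted by the Benjamini-Hochberg method over 20524 genes with a threshold of 0.05. All adjusted p-values in the text are from this test unless limma is named. Groups came from the sample labels. Replicates are separate samples by label, and p-values measure the spread between them only. Re-sequenced replicates were not counted again, and no other libraries agreed within sampling noise. Genes named from the lists were, per list, the 3 with the largest absolute change between a cell type and the mean of the others among genes called there and averaging at least 10 TPM in a type, and the members were always described. The genes and lists were chosen with earlier results of these data known. The script for the test was checked on simulated counts. Alternatives were DESeq2, upper-quartile scaling, no filter, limma on log2(TPM + 1), the batch 2 library of replicates sequenced in both batches with a batch term, a replicate block, and leaving out each library. Fits on batch 2 or batch 1 libraries alone were added after seeing the data. A planned description and a gene list are not reported here.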

Additional observations from a re-analysis of the deposited data

How the results depend on the processing

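Of 2929 values recomputed for the 9 genes under the alternatives, 2850 kept their direction and their side of the threshold, 41 newly passed it, 29 no longer did and 9 changed sign. On log2(TPM + 1) with limma, the sign turned for Calb2 in astrocytes against layer V neurons (-0.0029), S100b in interneurons against microglia (0.00094), Ncald in interneurons against cerebellar granule cells (0.03, and 0.02 with upper-quartile scaling) and Calm3 in dentate gyrus granule cells against layer V neurons (0.01). Without 1 library at a time, S100a1 in interneurons against the other types ran from -0.21 to 0.02, Calb2 in astrocytes against layer V neurons from -0.38 to 0.61, and Calb2 in dentate gyrus granule cells against microglia from -0.09 to 1.88, the last being -1.06 in batch 2 alone, a fit added after seeing the data. Calb2 in layer V neurons against the other types lost its call without layer V replicate 1 (adjusted p = 0.116) or replicate 2 (adjusted p = 0.128). With a replicate block, 40 of the neighbour comparisons passed in place of 39, Calm3 in interneurons against cerebellar granule cells being the addition (adjusted p = 0.0389), and the numbers of glial and cell type calls stayed at 9 and 51. Same-numbered replicates did not deviate together (median r = 0.039 over 45 pairs). DESeq2 gave no adjusted p for Calb2, so its calls for that gene are missing.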
